A study of Mus musculus with 12 samples.

Results

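The creatine kinases and the genes that supply their substrate were followed in the apical part of the mouse first mandibular molar germ. The group holds 7 of the 25899 genes of the deposited table, taken by gene symbol, and every symbol was found exactly 1 time. They are the creatine kinase genes Ckb, Ckmt1, Ckm and Ckmt2, the creatine synthesis genes Gatm and Gamt, and the creatine transporter gene Slc6a8. Ckmt1 was picked for its genotype difference in these same libraries, so that difference is given below as a description, with no test. RNA sequencing was done on first mandibular molars of C57BL/6 mice at postnatal day 4, with 6 libraries from Nfic-/- mice (null) and 6 from littermate Nfic+/- mice (heterozygous controls), each numbered 5 to 10. The controls therefore also lacked 1 intact copy of Nfic, which encodes a transcription factor of the nuclear factor I family that molar roots need, and the null allele was not limited to a cell type by the labels. The tissue was cut with a blade and extracted whole, so each value is a mixture of dental epithelium, mesenchyme and whatever adhered to them. In such bulk samples fewer cells of a type and less RNA per cell cannot be told apart.

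Creatine kinases move a phosphate group between ATP and creatine, which gives cells a fast reserve of phosphate and a way to carry it from mitochondria to the sites where ATP is used. Ckb (brain type) and Ckm (muscle type) encode the cytosolic enzymes, whereas Ckmt1 (ubiquitous type) and Ckmt2 (sarcomeric type) encode the mitochondrial ones. Gatm encodes the enzyme that makes guanidinoacetate from arginine and glycine, Gamt encodes the methyltransferase that turns it into creatine, and Slc6a8 encodes the carrier that takes creatine up from the blood. Ckm and Ckmt2 are genes of striated muscle, and Ckb and Ckmt1 are found in brain and in epithelia with high energy use.

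The stretches of 250 bases before the annotated starts of the 2 abundant kinase genes and of the 2 synthesis genes are printed because those pairs set the levels and the shared pattern described below. They come from RefSeq (GRCm38.p6), run 5′ to 3′ on the gene's own strand and end at the base before the start, with motif matches in capitals. The Ckmt1 window is chr2:121357526-121357775 (plus strand), that of Ckb is chr12:111672339-111672588 (minus strand), that of Gatm is chr2:122611278-122611527 (minus strand) and that of Gamt is chr10:80261013-80261262 (minus strand). For Ckmt1 and Gatm the GENCODE gene begins inside the window, so part of it is transcribed in that annotation.
Ckmt1: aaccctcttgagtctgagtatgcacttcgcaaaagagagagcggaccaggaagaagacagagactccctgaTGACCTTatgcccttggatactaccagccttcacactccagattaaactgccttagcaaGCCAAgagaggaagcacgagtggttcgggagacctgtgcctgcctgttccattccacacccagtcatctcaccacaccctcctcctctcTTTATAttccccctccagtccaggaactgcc
Ckb: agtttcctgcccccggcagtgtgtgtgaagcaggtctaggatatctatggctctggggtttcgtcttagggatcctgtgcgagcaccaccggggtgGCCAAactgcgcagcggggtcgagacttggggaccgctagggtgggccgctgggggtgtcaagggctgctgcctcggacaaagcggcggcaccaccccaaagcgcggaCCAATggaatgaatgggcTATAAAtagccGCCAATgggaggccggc
Gatm: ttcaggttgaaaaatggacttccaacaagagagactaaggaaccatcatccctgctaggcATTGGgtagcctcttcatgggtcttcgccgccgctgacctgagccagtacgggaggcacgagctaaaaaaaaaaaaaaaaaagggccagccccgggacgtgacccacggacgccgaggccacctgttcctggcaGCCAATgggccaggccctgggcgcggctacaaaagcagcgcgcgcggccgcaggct
Gamt: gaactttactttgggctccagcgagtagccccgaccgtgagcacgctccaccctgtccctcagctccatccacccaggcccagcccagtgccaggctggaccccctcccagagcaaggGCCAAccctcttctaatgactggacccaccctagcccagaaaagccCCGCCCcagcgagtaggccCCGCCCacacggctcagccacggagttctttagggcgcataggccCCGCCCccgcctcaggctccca

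Of the 7 genes, 6 had a promoter in the RefSeq table, and Slc6a8 had none there. Both strands were searched for the letters of the TATA box in its form TATAAA and in a longer form, TATATAA. The search also took in the box named CCAAT and the GC box with the letters GGGCGG. For nuclear factor I it took a single arm, TTGGC, and the palindromic site made of facing arms. The letters AAGGTCA stood for the estrogen-related receptor site. The Ckb window held TATAAA at -28 to -23, counted from the start, with CCAAT at -46 to -42 and again at -16 to -12. In Ckmt1 the TATAAA match lay on the opposite strand at -31 to -26, and AAGGTCA matched on the opposite strand at -179 to -173. Of 32851 RefSeq windows of the same length, 12.4% held TATAAA and 4.08% held AAGGTCA. The Ckm window held TATATAA at -31 to -25, a match that 3.04% of windows share. Gatm held 2 CCAAT matches and Gamt 3 GGGCGG matches, where 33.8% and 32.7% of windows hold at least 1. TTGGC was found in 5 of the 7 windows of these genes, against 41.5% of all windows. Those without it were the Ckm window and 1 of the 2 Ckmt1 windows. In Ckb and Gatm 1 TTGGC match on the opposite strand shares 4 bases with a CCAAT match. The palindromic site was in 0 of 7 windows of these genes and in 0.703% of all windows. A match is a description of the letters and not of binding, and expression was not measured separately for the 2 annotated RefSeq starts of Ckmt1.

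Some libraries stood apart in ways that touch these genes. The libraries numbered 8 and 9 of both genotypes carried intestinal transcripts, with 14 of 14 intestinal epithelium markers at 0.1 RPKM or more and a summed level of 134 to 175 RPKM, against 0.184 to 0.446 RPKM and at most 1 marker in the other 8. RPKM counts reads per gene, scaled by gene length and by library depth. The null library 9 also had a summed level of 49.4 RPKM over 17 skeletal muscle markers, against 4.70 to 10.3 RPKM in the other 11. Markers of the labelled tissue were present, with 10 of 10 dental epithelium, 7 of 7 ameloblast and 6 of 6 dental mesenchyme markers at 0.1 RPKM or more in every library. The libraries rest on 70.2 to 96.4 M reads. Nfic itself, the check of the labels, averaged 16.8 ± 4.42 RPKM in the controls against 11.4 ± 3.02 RPKM without intact Nfic (SD, n = 6 each). It was lower in the null library for 6 of 6 numbers but present there, with overlapping groups (11.35 to 24.5 and 7.90 to 16.5 RPKM), and reads outside the disrupted part of the gene check nothing.

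The molar expressed the brain type and the ubiquitous mitochondrial kinase strongly, the transporter moderately, the synthesis genes weakly and the muscle types hardly at all. Over the 12 libraries Ckb (ENSMUSG00000001270, chromosome 12, 111669361 to 111672338, GRCm38) had 182 ± 40.6 RPKM and was 116th of all genes by mean level. Ckmt1 (ENSMUSG00000000308, chromosome 2, 121357714 to 121363737) had 86.0 ± 12.7 RPKM and was 282nd. Slc6a8 (ENSMUSG00000019558, chromosome X, 73673150 to 73682502) had 8.436 ± 1.548 RPKM. Gamt (ENSMUSG00000020150, chromosome 10, 80258151 to 80261012) had 2.0 ± 0.777 RPKM and Gatm (ENSMUSG00000027199, chromosome 2, 122594467 to 122611303) had 1.78 ± 0.939 RPKM. Ckm (ENSMUSG00000030399, chromosome 7, 19404776 to 19422841) had a median of 0.3501 RPKM and Ckmt2 (ENSMUSG00000021622, chromosome 13, 91853387 to 91876885) a median of 0.0235 RPKM. RPKM is scaled by gene length, but the lengths behind the deposited values are not stated. Levels of different genes can therefore be set against each other only roughly. In heterozygous library 6, Ckb had 13587 reads at 124 RPKM and Ckmt1 13170 reads at 71.2 RPKM. The length used for Ckb was thus shorter than that for Ckmt1, whereas their GENCODE M21 exons cover 2895 and 2496 bases. With those exon lengths Ckb would stand lower relative to Ckmt1 than it does in the deposited values.

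In that order the ranges over libraries of Ckb, Ckmt1 and Slc6a8 did not touch those of their next lower neighbour, and nor did that of Ckm touch that of Ckmt2. Gamt and Gatm overlapped and differed by less than their spread, although Gamt was the higher of them in 10 of 12 libraries. Gatm was above Ckm in 11 of 12 libraries, the exception being null library 9. The order was the same by mean and by median.

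**Figure D1:**
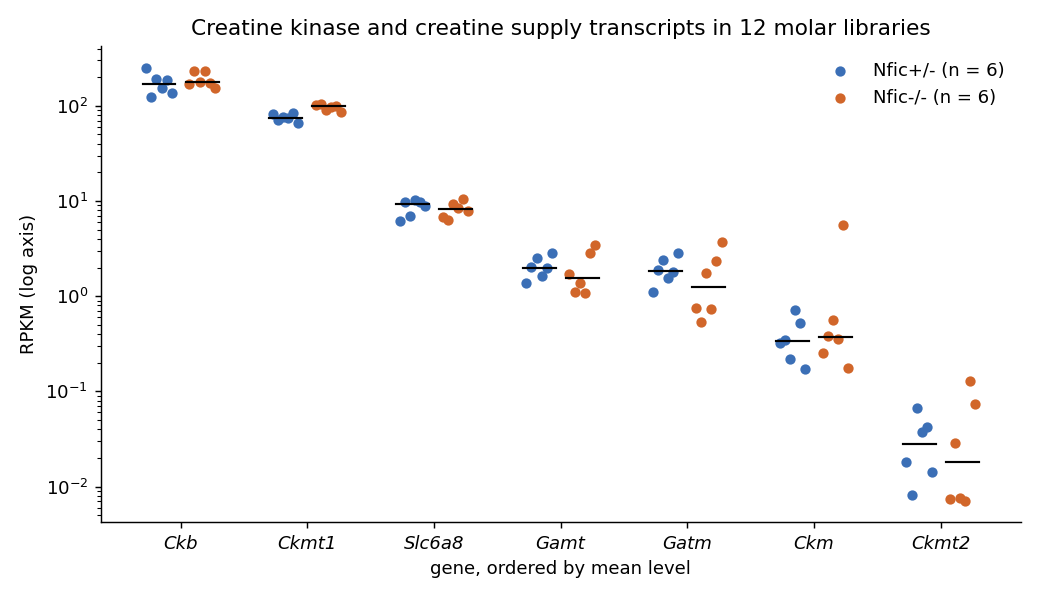
RPKM on a log axis of the 7 genes in 6 heterozygous (blue) and 6 null (orange) libraries, with 1 point per library and a black line at each group's median. Ckb (124 to 252 RPKM) and Ckmt1 (66.4 to 104 RPKM) lie far above the rest, and the single high Ckm point at 5.61 RPKM is null library 9; Ckmt2 points near 0.007 RPKM stand for 0 or 1 read.

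Ckb made up 67.4% ± 4.00 of the summed creatine kinase RPKM and Ckmt1 32.3% ± 3.80 (SD, n = 12). By RPKM the mitochondrial enzyme's transcript was thus about 1 in 3 of the family's, a share that depends on the gene lengths used. Ckm held 0.0744% to 1.999% and Ckmt2 0.00214% to 0.0459%. The Ckmt1 share lay between 24.65% and 36.4% in heterozygous and between 29.2% and 37.4% in null libraries, with means of 30.95% ± 4.09 and 33.7% ± 3.24. These shares overlapped between the genotypes.

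Ckmt1 stood higher in the null molars. Heterozygous libraries ran from 66.4 to 83.8 RPKM with a median of 74.9, and null libraries ran from 85.6 to 104 RPKM with a median of 98.6. The lowest null library (number 10) was thus above the highest heterozygous library (number 9), and the groups did not overlap. The means were 75.6 ± 6.71 and 96.4 ± 7.17 RPKM (SD, n = 6 each), so the null level was 127.5% of the heterozygous level. On the log2(RPKM + 1) scale, on which all differences below are given, Ckmt1 differed by 0.35 (SE 0.0779). Each null library exceeded the heterozygous library of the same number, by factors from 1.19 (number 7) to 1.46 (number 6). Between 13170 and 23548 reads stood behind each value. Across the 12094 genes fitted with limma, 0.0% reached an adjusted p under 0.05, while 5.34% had an unadjusted p under 0.05 (2.62% with the null higher). Non-overlapping groups made up 0.124% of the genes with the null higher and 0.0331% with it lower (0.157% in all), and 2.69% were higher in the null for 6 of 6 numbers. Ckmt1 was picked from this contrast, so nothing is read from its place among these shares.

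The Ckmt1 difference in subsets of the libraries is description too, since the subsets are drawn from the libraries it was picked on. It was 0.360 among the libraries numbered 5 to 7 and 0.335 among those numbered 8 to 10. The sample numbers in the table's headings repeat between these 2 sets but not within either, so the sets were kept apart as possible sequencing runs, although no label names a run. Without libraries 8 and 9, which held the intestinal transcripts, it was 0.361 (SE 0.105). The dental epithelium markers also stood higher in the null molars, with 9 of 9 tested genes above 0, a median difference of 0.27 and summed levels of 1730 to 2568 against 1429 to 2183 RPKM. With their mean level as a covariate the Ckmt1 difference was 0.34 (SE 0.0905). The dental mesenchyme markers stood lower, with 6 of 6 below 0, a median difference of -0.55 and summed levels of 40.4 to 202 against 89.3 to 226 RPKM. So did the odontoblast markers, with 6 of 6 below 0, a median difference of -0.512 and summed levels of 1901 to 4050 against 3188 to 4762 RPKM. Unadjusted p-values under 0.05 were found for 5 of 6 odontoblast, 4 of 6 mesenchyme and 3 of 9 epithelium markers, against 5.34% of all tested genes. The part of the odontoblast markers in the Ckmt1 difference was not tested. With the mesenchyme list as a covariate the Ckmt1 difference was 0.25 (SE 0.0674). The median over all tested genes was -0.0028. Ckmt1 overlaps Strc, on the opposite strand, by 10 bases, and the counting is not known to use strand.

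Ckb, the cytosolic partner, varied more among libraries than between genotypes. Heterozygous libraries ran from 124 RPKM (number 6) to 252 RPKM (number 5) with a median of 169, and null libraries from 153 RPKM (number 10) to 235 RPKM (numbers 6 and 8) with a median of 176. The groups overlapped almost throughout. The means were 174 ± 47.2 and 191 ± 35.1 RPKM (SD, n = 6 each), a difference of 0.16 (SE 0.169, limma adjusted p = 1.0), with 3 of 6 same-numbered comparisons higher. Between 13587 and 29529 reads stood behind each value. Without libraries 8 and 9 the difference was 0.10 (SE 0.236). The Ckb RPKM was 2.28 ± 0.462 times that of Ckmt1 in heterozygous and 1.98 ± 0.305 times in null libraries. This ratio, which depends on the gene lengths used, was lower in the null for 4 of 6 numbers. Its ranges overlapped (1.74 to 3.05 and 1.67 to 2.42).

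**Figure D2:**
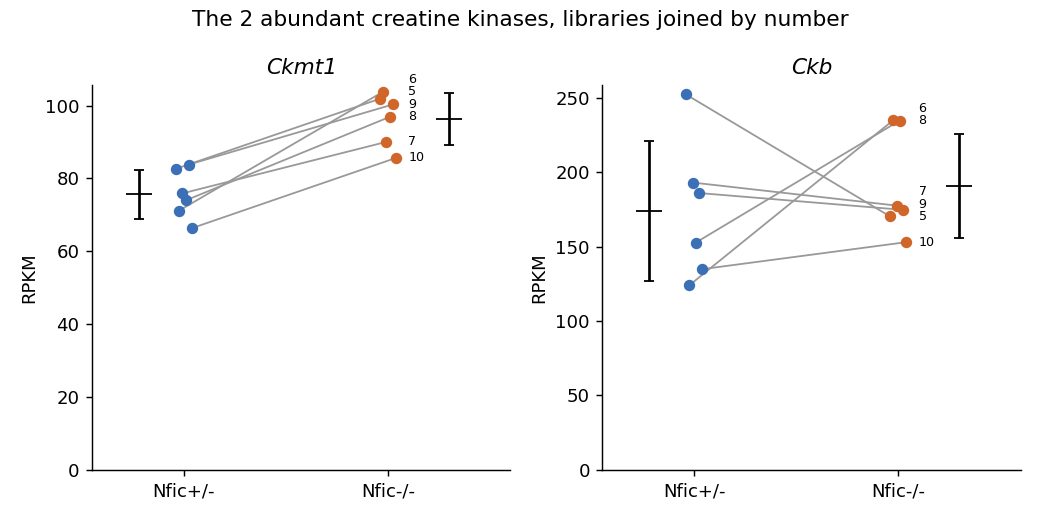
RPKM of Ckmt1 and Ckb in heterozygous and null libraries, with lines that join libraries of the same number (printed at the right) and black bars for mean ± SD (n = 6). All 6 Ckmt1 lines go up and the groups do not overlap (at most 83.8 against at least 85.6 RPKM), whereas 3 Ckb lines go up and 3 go down.

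The muscle-type kinases were low, and Ckm stood far higher in a single library, while only Ckmt2 was close to the limit of detection. Ckm had 22 to 92 reads (0.170 to 0.720 RPKM) in 11 libraries and 747 reads (5.61 RPKM) in null library 9, which is 16.4 times the median of the other 11. The heterozygous libraries had a median of 0.334 RPKM and the null libraries of 0.370 RPKM, and the groups overlapped. The difference of Ckm was 0.35 with all libraries and -0.035 without null library 9. Ckmt2 had 18 reads in null library 9, 10 in null library 10 and 0 to 7 in the rest. It had 0 reads in heterozygous library 6 and in null libraries 7 and 8, and a count of 0 allows up to 3 reads. The groups overlapped, and no fold is given for so few reads. Neither gene reached the mean of 1 RPKM that was asked of tested genes.

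Genes of skeletal muscle stood high in the same library as Ckm. Of 17 muscle markers, which leave out the kinases, 15 had their highest value in null library 9. Acta1, the skeletal actin gene, had 14.6 RPKM there against 1.05 to 3.53 RPKM elsewhere, and Mylpf, a fast muscle myosin light chain gene, had 12.6 against 1.13 to 2.42 RPKM. Myh8, the perinatal myosin heavy chain gene, had 1.52 against at most 0.0517 RPKM. Pvalb (0.0102 RPKM) and Myh4 (0.474 RPKM) were the markers not highest in that library. The next highest Ckm values, in heterozygous library 8 (0.720 RPKM), null library 7 (0.558 RPKM) and heterozygous library 9 (0.528 RPKM), came with the next highest muscle sums, 10.3, 7.57 and 8.73 RPKM. The part of muscle tissue in the Ckm values was not tested. Ckm overlaps an antisense gene (A930016O22Rik) over 3952 bases of its span and Ckmt2 another (1700119I11Rik) over 613 bases, and reads of these cannot be told apart where strand was not used.

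**Figure D3:**
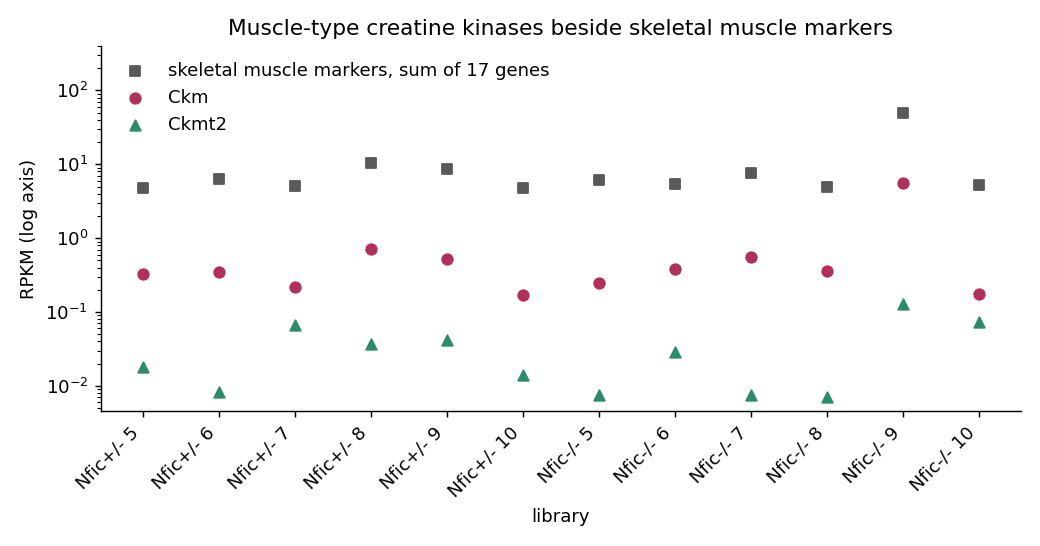
RPKM on a log axis of Ckm (circles), Ckmt2 (triangles) and the sum of 17 skeletal muscle markers (squares) in each of the 12 libraries. Null library 9 has the highest point of all 3 series, at 5.61, 0.129 and 49.4 RPKM.

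Gatm and Gamt, the 2 steps of creatine synthesis, were low in all libraries and varied together among libraries. Gatm ran from 1.11 to 2.83 RPKM in heterozygous libraries with a median of 1.85, and from 0.537 to 3.69 RPKM in null libraries with a median of 1.25. The null libraries enclosed the heterozygous range, with numbers 5, 6 and 8 below it and number 10 above it. The means were 1.93 ± 0.607 and 1.64 ± 1.23 RPKM (SD, n = 6 each), a difference of -0.25 (SE 0.257, limma adjusted p = 1.0). Gamt ran from 1.37 to 2.86 RPKM with a median of 1.999 in heterozygous libraries, and from 1.082 to 3.48 RPKM with a median of 1.54 in null libraries. Again the null libraries spread to both sides. Its means were 2.07 ± 0.554 and 1.93 ± 1.005 RPKM, a difference of -0.11 (SE 0.198, limma adjusted p = 1.0). Gatm was lower in the null for 4 of 6 numbers and Gamt for 3 of 6. The values rest on 113 to 1014 reads for Gatm and 111 to 460 reads for Gamt. Without libraries 8 and 9 the differences were -0.30 and -0.17. Libraries 5 to 7 gave a Gatm difference of -0.497, and 8 to 10 gave -0.001; Gamt had -0.302 and 0.083. Leaving out null library 6 alone gave -0.117 and -0.025, and leaving out null library 10 gave -0.440 and -0.245.

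Slc6a8, the creatine carrier, had 6.24 to 10.1 RPKM in heterozygous libraries with a median of 9.31 and 6.29 to 10.5 RPKM in null libraries with a median of 8.22. The 2 groups covered nearly the same range. The means were 8.64 ± 1.65 and 8.24 ± 1.57 RPKM (SD, n = 6 each), a difference of -0.06 (SE 0.137, limma adjusted p = 1.0), with 3 of 6 numbers higher in the null. Between 2299 and 5127 reads stood behind each value. Without null library 6 the difference was 0.005, and without libraries 8 and 9 it was -0.05. The 4 libraries with intestinal transcripts had 8.54 to 10.5 RPKM (mean 9.75) and the other 8 had 6.24 to 9.71 RPKM (mean 7.78). The part of intestinal tissue in the Slc6a8 values was not tested.

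**Figure D4:**
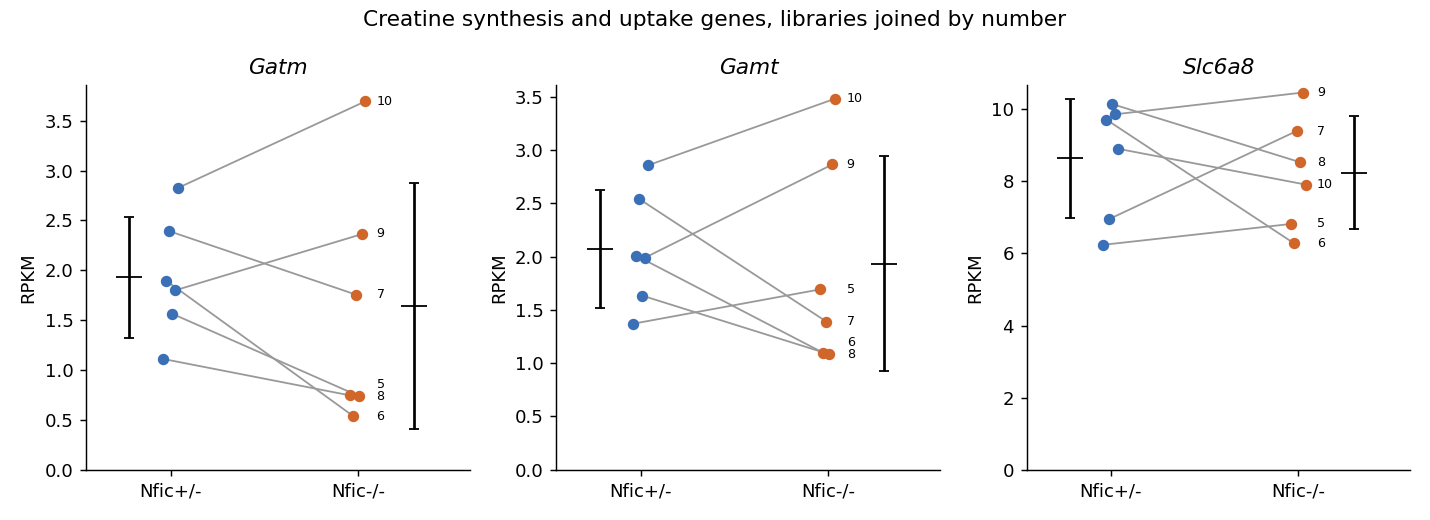
RPKM of the synthesis genes Gatm and Gamt and the transporter gene Slc6a8 in heterozygous (left) and null (right) libraries, joined by library number, with mean ± SD (n = 6). The genotypes overlap in all 3 panels, and library 10 is the highest of its genotype for both Gatm and Gamt.

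Among libraries of one genotype Gatm and Gamt varied together. For this, each library's log2(RPKM + 1) was taken as its deviation from its genotype mean, so that the genotype contrast plays no part. In all, 55 correlations were computed over the 12 libraries, among the 5 genes and between them and Nfic and 8 marker lists, each with a 2-sided permutation test that reassigned libraries within genotypes 100000 times. The p-values given belong to r unless rho is named. Of the 55 correlations, 11 had a Benjamini-Hochberg adjusted p under 0.05. That test treats libraries of a genotype as independent, although same-numbered libraries may resemble each other. An exact test over the 720 arrangements that move same-numbered libraries together, added after the data had been seen, gave 13 such correlations, 10 of them among the 11. The correlations among the creatine genes and that of Ckmt1 with Nfic had been seen before the tests were drawn up, so their p-values repeat that observation and are no independent support. Gatm and Gamt correlated at r = 0.909 (rho = 0.895, permutation p = 0.00036, adjusted p = 0.0066). The correlation was 0.829 without the 2 libraries farthest from the Gatm median, 0.620 and 0.988 in the sets 5 to 7 and 8 to 10, and 0.891 without libraries 8 and 9. Each set holds only 6 libraries over both genotypes, so a correlation within a set, even an extreme one, carries little weight. Ckmt1 and Ckb correlated at r = 0.721 (rho = 0.678, permutation p = 0.0163), which missed the threshold after adjustment (p = 0.0641), with 0.768 and 0.753 within the sets of numbers. In the exact test that moves same-numbered libraries together its adjusted p was 0.0294, under the threshold. All libraries share the tissue mixture and the RPKM scaling, so a correlation here is a statement about the libraries and not about cells.

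The synthesis genes and the kinases went opposite ways with the dental mesenchyme markers. Gatm followed the dental mesenchyme markers (r = 0.887, rho = 0.853, permutation p = 0.0002, adjusted p = 0.0055), and so did Gamt (r = 0.829, rho = 0.769, permutation p = 0.00164, adjusted p = 0.0150). Without the 2 farthest libraries these were 0.780 and 0.704, and in the sets 5 to 7 and 8 to 10 they were 0.806 and 0.929 for Gatm and 0.719 and 0.886 for Gamt. Ckb went with the ameloblast markers (r = 0.813, rho = 0.846, permutation p = 0.00498, adjusted p = 0.0342), at 0.624 without the 2 farthest libraries and at 0.944 and 0.818 within the sets. With the median gene set equal in all libraries it was 0.896. Ckmt1 leaned the same way at r = 0.568 (permutation p = 0.0774, adjusted p = 0.158), and at 0.876 with the median gene set equal. Gatm and Gamt leaned against these markers at r = -0.508 and -0.576 (permutation test, adjusted p = 0.148 and 0.0986). With the median gene set equal they had -0.413 and -0.401. Ckb did not go with the dental epithelium markers (r = -0.397, rho = -0.308, permutation p = 0.253, adjusted p = 0.422), at -0.862 and 0.326 within the sets. With the median gene set equal it was 0.287, so its sign depended on the scaling. With this list Ckmt1, Gatm and Gamt had r = 0.051, -0.263 and -0.297. These became 0.468, -0.757 and -0.805 with the median gene set equal. Against the mesenchyme markers Ckb had r = -0.793 (rho = -0.755, permutation p = 0.00061, adjusted p = 0.00839) and Ckmt1 had r = -0.775 (rho = -0.818, permutation p = 0.00288, adjusted p = 0.0226). Within the sets these were -0.861 and -0.979 for Ckb and -0.860 and -0.795 for Ckmt1, and without the 2 farthest libraries -0.666 and -0.599. With the median gene set equal the mesenchyme correlations were 0.843 for Gatm, 0.707 for Gamt, -0.748 for Ckb and -0.854 for Ckmt1.

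Ckmt1 ran against Nfic among libraries of the same genotype, a relation noticed before it was tested. Their correlation was r = -0.897 (rho = -0.860, permutation p = 0.00015, adjusted p = 0.0055), at -0.773 without the 2 libraries farthest from the Ckmt1 median. It was -0.993 and -0.945 in the sets 5 to 7 and 8 to 10 (6 libraries each), and -0.990 without libraries 8 and 9 (8 libraries). With the median gene set equal in all libraries it was -0.720. Nfic went the other way with Gatm (r = 0.811, rho = 0.720, permutation p = 0.00083, adjusted p = 0.00913), at 0.661 without the 2 farthest libraries and 0.863 and 0.735 within the sets. Ckb also ran against Nfic (r = -0.754, rho = -0.783, permutation p = 0.00831, adjusted p = 0.0457), at -0.556 without the 2 farthest libraries, -0.826 and -0.813 within the sets and -0.492 with the median gene set equal. The libraries with the least Nfic, null 6 (7.90 RPKM) and null 5 (8.89 RPKM), had the most Ckmt1 (104 and 102 RPKM), and heterozygous library 10, with the most Nfic (24.5 RPKM), had the least Ckmt1 (66.4 RPKM). Those libraries also had low and high mesenchyme sums, at 40.4, 74.7 and 226 RPKM. The part of tissue makeup in this relation was not tested.

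**Figure D5:**
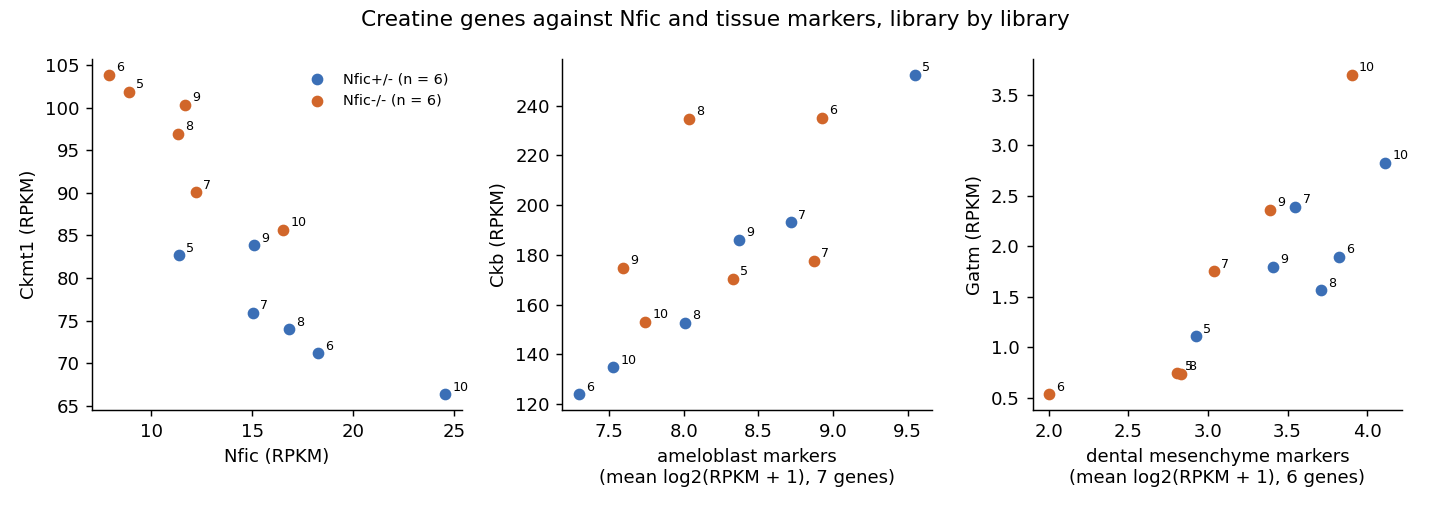
Each point is a library (blue heterozygous, orange null, with its number), showing Ckmt1 against Nfic (both RPKM), Ckb (RPKM) against the mean log2(RPKM + 1) of 7 ameloblast markers, and Gatm (RPKM) against that of 6 dental mesenchyme markers. Ckmt1 goes down as Nfic goes up in both genotypes (r = -0.897 after removing genotype means), while Ckb and Gatm go up with their marker lists (r = 0.813 and 0.887).

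The genes most like each member, by the Pearson correlation of the same deviations over 12 libraries among 12094 genes, were picked for being the highest and carry no test. They were C2cd2l (0.90), Tmc7 (0.879) and Lmtk2 (0.856) for Ckmt1. For Ckb they were Gpr146 (0.953), Tppp (0.950) and Mpzl2 (0.935). For Gatm they were Hspb11 (0.963), Prss23 (0.955) and Fcrls (0.950), and for Gamt Sh3kbp1 (0.968), Fam113a (0.965) and Lrrn2 (0.961). For Slc6a8 they included Lap3 (0.941) and Irf1 (0.931). No gene was shared between these lists.

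None of the other genes around the creatine system passed the test between genotypes, and nor did any other tested gene, so this is not particular to them. Of 28 tested genes in 6 lists, 15 stood above 0 and 13 below. At an adjusted p of 0.05 (limma) 0 passed, beside 0.0% of all 12094 tested genes. An unadjusted p under 0.05 was found for 1 of the 28, beside 5.34% of all tested genes. Among genes of arginine and glycine supply (8 of 12 tested, median -0.04), Oat, which encodes ornithine aminotransferase, had 33.96 ± 4.86 and 30.2 ± 7.68 RPKM, and the ornithine decarboxylase gene Odc1 had 25.7 ± 3.92 and 26.4 ± 3.10 RPKM (heterozygous and null, SD, n = 6 each). The mitochondrial serine hydroxymethyltransferase gene Shmt2 had 7.74 ± 1.81 and 7.24 ± 1.90 RPKM. In the methyl donor cycle (8 of 12 tested, median 0.01), Mat2a, which makes the methyl donor used by Gamt, had 21.9 ± 3.33 and 22.3 ± 2.97 RPKM, with Ahcyl1 at 22.8 ± 1.28 and 23.3 ± 1.94 and the adenosine kinase gene Adk at 19.3 ± 1.29 and 19.3 ± 2.23 RPKM.

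Adenylate kinases also shuttle phosphate between nucleotides (3 of 9 tested, median -0.034). Ak3, the mitochondrial matrix enzyme that uses GTP, averaged 23.5 ± 2.04 RPKM with 1 intact Nfic copy against 19.8 ± 1.96 RPKM without (SD, n = 6 each), a difference of -0.23 (SE 0.0814, limma adjusted p = 0.934), lower for 6 of 6 numbers. Its groups overlapped (20.4 to 26.2 and 17.1 to 22.3 RPKM). The cytosolic Ak1 had 15.9 ± 1.84 and 17.8 ± 2.28 RPKM. Transcripts of the mitochondrial carriers of adenine nucleotides and of phosphate were abundant. The adenine nucleotide translocase gene Slc25a5 had 93.8 ± 5.20 and 95.7 ± 8.32 RPKM, and Slc25a4 had 71.3 ± 7.77 and 72.3 ± 11.2 RPKM. The phosphate carrier gene Slc25a3 had 36.6 ± 2.50 and 38.4 ± 1.86 RPKM. Of 6 tested genes of this exchange 4 stood above 0, with a median of 0.02.

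Of 5 other carriers, only the taurine transporter gene Slc6a6 was tested, at 13.2 ± 3.49 and 12.7 ± 2.82 RPKM. Slc16a12, which encodes another creatine carrier, had a mean of 0.0388 RPKM and Slc6a13 one of 0.228 RPKM. The estrogen-related receptors and coactivators act on genes of mitochondrial energy supply. Esrra had 9.09 ± 0.999 and 9.67 ± 1.12 RPKM and Ppargc1a 1.04 ± 0.333 and 1.34 ± 0.784 RPKM (SD, n = 6 each). Ppargc1b averaged 0.760 RPKM over the libraries, under the mean of 1 RPKM asked of tested genes.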

How the data were processed

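RNA was sequenced from 12 molar libraries, 6 per genotype. TopHat2 and the mm10 build are named in the submitters' processing notes. For versions, counting and gene models the sources used here give nothing. The authors deposited 1 table of log2 RPKM (values -11.1 to 16.7; log2 was read from the values). Genes with no reads carry a value worth 0.9 reads, from which relative depth and whole reads per gene were recovered (tolerance 0.02 reads); depth was set with GENCODE M21 exon lengths, matched for 24987 genes and not for 912. The table had been taken for linear RPKM when the design was set.

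The analysis scale was log2(RPKM + 1). The 12094 genes that averaged at least 1 RPKM were fitted with limma 3.58.1 (R 4.3.3), with genotype as the only term and an intensity trend, and adjusted by Benjamini-Hochberg at 0.05. The fit and the read recovery were tested on simulated data. Correlations and tables were made in Python 3.11.15 (pandas 2.3.3, numpy 2.4.6). A count test was not run. Members and lists were chosen with earlier results of these data known. The set of correlations was drawn up after some of them, Ckmt1 with Nfic included, had been seen, and the promoter motifs after the sequences had been read. Named genes are the members, Nfic, the 3 most abundant genes of each pathway list, the 2 most abundant of each marker list (only those that bear on a member are printed), and the 3 most alike each member, predicted genes aside; 2 of these genes are not reported here. Myh8, Pvalb and Myh4 were named after their values were seen. Nothing in the labels says whether the libraries are separate animals, so p-values measure the spread between these libraries. The alternatives were a block, other pseudocounts, filters, scalings and variance settings, library weights, a run term and libraries left out. Marker covariates were a later addition, chosen once values were known.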

Additional observations from a re-analysis of the deposited data

Results flagged for a closer look

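Ckm in null library 9 had 5.61 RPKM (747 reads), and its gap to the next null library took up 0.838 of the range of the 6 null libraries on the log2(RPKM + 1) scale, above Dixon's 95% critical value for 6 samples. It was the 1 flag among 14 groups of 6 examined (7 genes in 2 genotypes), where chance flags about 1 in 20 groups. In the same library 15 of 17 skeletal muscle markers had their highest value.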

How the results depend on the processing

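No gene passed an adjusted p of 0.05 under 27 of 28 alternative settings, and leaving out each library in turn gave 0 to 0 genes, while limma with array weights called 17 (9 higher, 8 lower). The Ckmt1 difference was 0.311 to 0.381 with each library left out; its direction is fixed by how it was picked and is no sign of stability. Its SE, 0.0779, was 0.1475 with library medians set equal and 0.109 with quantile normalization, where the difference was 0.297. Library numbers 5 to 10 occur in both genotypes and the series speaks of littermate pairs, but no label ties a number to a litter. Deviations of same-numbered libraries correlated at 0.492, 0.00502, 0.310, 0.667, 0.688 and 0.802, and for 3 of 6 numbers the libraries were each other's closest of the other genotype. With the number as a replicate block 0 genes passed (981 at an unadjusted p under 0.05 against 646), and the SE of Ckmt1 was 0.0742. In the correlations, moving same-numbered libraries together changed the 11 calls to 13, and the call for Ckb with the nerve and Schwann cell markers was lost (adjusted p = 0.0560). Gained in that exact test were Ckmt1 with Ckb (adjusted p = 0.0294), Ckb with Gatm (r = -0.603, adjusted p = 0.0218) and Slc6a8 with the intestinal epithelium markers (adjusted p = 0.0153). The last had r = 0.627 (rho = 0.671), 0.782 with library medians set equal, and a permutation adjusted p of 0.0978 with libraries moved singly. The genotype differences of the other tested genes, smaller than their SE in the main fit, changed size or sign in places. Gatm was -0.518 (SE 0.198, limma adjusted p = 0.168) with array weights, -0.440 (SE 0.213) without null library 10 and -0.473 (SE 0.405) with a pseudocount of 0.1 RPKM. With the dental mesenchyme covariate the differences were -0.127 (SE 0.129) for Ckb, 0.245 (SE 0.149) for Gatm, 0.239 (SE 0.138) for Gamt and 0.106 (SE 0.132) for Slc6a8. Gamt was 0.083 in libraries 8 to 10 and 0.008 with the dental epithelium covariate. Slc6a8 was 0.040 without both libraries numbered 6, and -0.138 to 0.005 with each library left out. The median log2 RPKM of the null libraries differed from that of the controls by -0.0335, and setting library medians equal left every sign of the 5 tested genes as it was. Depth limits Ckmt2 (0 to 18 reads) most.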

Other observations

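Gatm stood at 0.811 to 0.989 of the Gamt level by RPKM in the heterozygous libraries (0.925 ± 0.0623, SD, n = 6) and at 0.440 to 1.26 in the null libraries (0.793 ± 0.323). The difference in spread was not tested. Among markers of cells known to hold much Ckb, the osteoclast markers' correlation with Ckb within genotypes missed the threshold (r = -0.619, rho = -0.713, permutation p = 0.0155, adjusted p = 0.0641 over 55 correlations), at -0.534 without the 2 farthest libraries and at -0.657 and -0.593 within the sets 5 to 7 and 8 to 10. Ctsk, the osteoclast protease gene, averaged 46.1 ± 8.82 RPKM in the controls against 37.2 ± 19.99 RPKM in the null libraries (SD, n = 6 each). Nerve and Schwann cell markers went against Ckb (r = -0.731, rho = -0.657, permutation p = 0.00807, adjusted p = 0.0457), but at -0.473 without the 2 farthest libraries and -0.129 in libraries 8 to 10, against -0.928 in libraries 5 to 7, and they went with Slc6a8 (r = 0.737, rho = 0.678, permutation p = 0.00939, adjusted p = 0.0470), at 0.428 without the 2 farthest libraries and 0.661 and 0.867 within the sets 5 to 7 and 8 to 10. With the median gene set equal these were -0.275 and 0.433. With the permutation test applied to rho, both nerve correlations missed the threshold (adjusted p = 0.102 for Ckb and 0.0961 for Slc6a8). The osteoclast correlation with Ckb fell just under it in the permutation test of rho (adjusted p = 0.0493).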
